A study of Drosophila melanogaster with 13 samples.

Results

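Cytochrome P450 genes of the adult Drosophila head were taken from the deposited expression values by gene name, as every name that starts with Cyp and a digit. Of the 18344 gene models, 86 names matched, and 85 of them were P450 genes, including 2 pseudogenes. The remaining name, Cyp1, belongs to a cyclophilin and was left out. The samples were whole heads of adult flies aged 5 days, raised at 25 °C. Rab5 RNAi heads (n = 5) had the genotype GMR-Gal4/UAS-Rab5 RNAi, heads labelled Rab7 RNAi (n = 4) had GMR-Gal4/UAS-Rab7 RNAi, and control heads (n = 4) had GMR-Gal4/WT. All 3 groups therefore carried the GMR driver, which acts in the eye, so that the RNAi was directed at the eye while the values average over the whole head. Per its design text, the study was about Rab genes and the assembly of microtubules, and the eyes of its Rab5 RNAi line degenerated severely.

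P450 enzymes are haem proteins that put an oxygen atom into small molecules. Microsomal P450s receive electrons from the reductase Cpr, and mitochondrial P450s receive them through the ferredoxin reductase dare and a ferredoxin. In insects the CYP3 and CYP4 clans are large and hold many enzymes that attack plant toxins, insecticides, fatty acids and odorants, whereas members of the CYP2 and mitochondrial clans include enzymes that make and break down the moulting hormone ecdysone. In heads, P450s are known from fat body, antennae, glia and cuticle-forming cells. The genes are named by family number and subfamily letter, and close relatives often lie side by side as tandem copies.

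The unit throughout is FPKM, fragments per kilobase of gene and per unit of library size, as scaled by the authors, and reads recovered from these values ran from 17138630 to 21410768 per library. Rab5 itself averaged 57.7 ± 5.56 FPKM in Rab5 RNAi (SD, n = 5), against 115.5 ± 4.54 in controls (SD, n = 4). Rab7 averaged 97.7 ± 9.54 FPKM in the libraries labelled Rab7 RNAi and 99.97 ± 3.93 in controls (SD, n = 4 each), a log2 difference of -0.04 with a 95% interval of -0.21 to 0.13, so a fall of the targeted transcript was not seen and the group is called by its label. The yellow gene, y, carried by many marked fly strains in mutant or rescued form, averaged 31.4 ± 13.2 FPKM in Rab5 RNAi (SD, n = 5), 11.1 ± 4.75 in the labelled Rab7 RNAi libraries and 0.0874 ± 0.0456 in controls (SD, n = 4 each). Each group is 1 genotype, so strain background and RNAi cannot be told apart. Within every group some libraries stood apart: the muscle actin Act57B was above 1000 FPKM in Rab5 RNAi 1 and 5, labelled Rab7 RNAi 1 and 4 and control 4, and between 652.6 and 846.5 FPKM in the other 8. The labels name no sex, and lncRNA:roX1, a male-specific RNA, averaged 251.1, 224 and 250 FPKM in Rab5 RNAi, labelled Rab7 RNAi and control heads, while the female yolk protein gene Yp1 averaged 0.12, 0.187 and 0.419 FPKM.

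The head used a small part of the family heavily. Of the 85 members, 7 had a control mean of at least 50 FPKM, 29 of at least 10, and 34 lay between 1 and 10. A further 22 lay under 1 FPKM in controls, and Cyp9c1 and Cyp4d2 had no read in any library. Both lie wholly within gene models on the opposite strand. The sources used here do not state how reads on overlapping models were counted, so absence of these transcripts cannot be concluded. The 12 members with the highest control means held 63.4% of the summed P450 level of controls, and the 20 highest held 77.7%. Summed over all 85 members, the level was 1112 ± 246 FPKM in Rab5 RNAi (SD, n = 5), 1085 ± 59.5 in the labelled Rab7 RNAi libraries and 1194 ± 94.5 in controls (SD, n = 4 each), and the groups overlapped. The same genes took 0.163% to 0.289% of all reads.

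**Figure D1:**
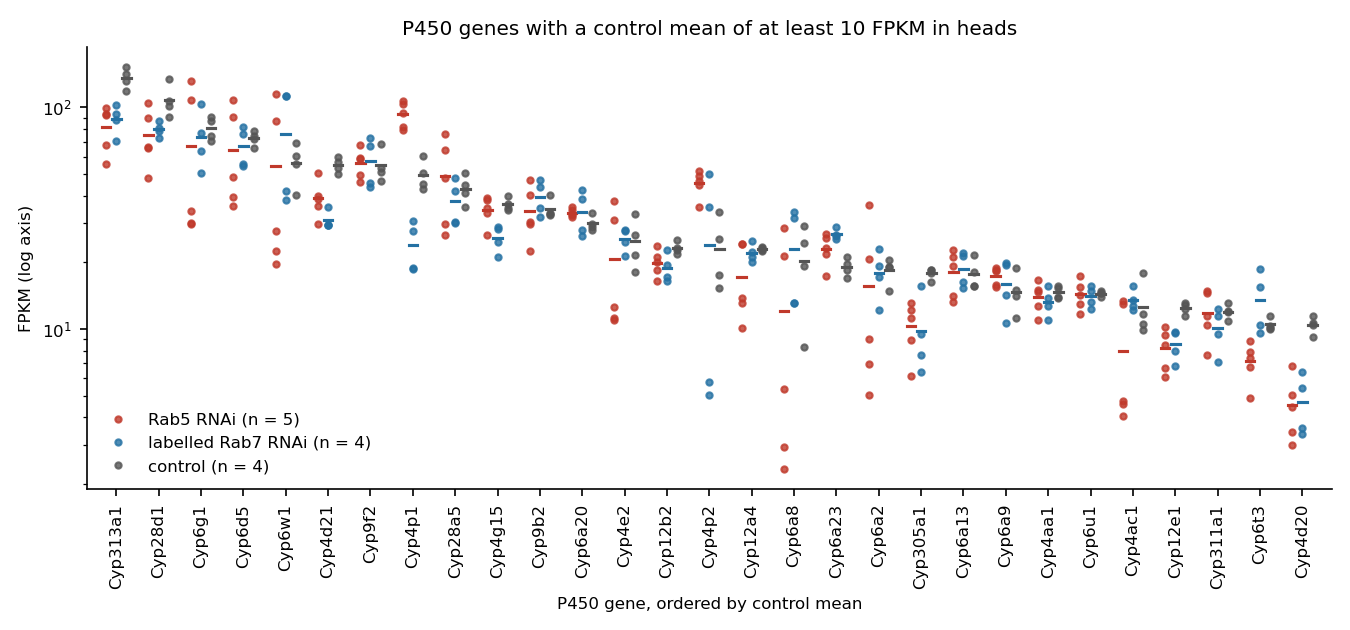
FPKM (log axis) of the 29 P450 genes with a control mean of at least 10 FPKM, ordered by that mean, with 1 point per library and a bar at each group mean, for Rab5 RNAi (n = 5), labelled Rab7 RNAi (n = 4) and control (n = 4). Cyp4p1 separates into 3 bands, with Rab5 RNAi on top and labelled Rab7 RNAi at the bottom, whereas Cyp6g1, Cyp6w1 and Cyp6a8 spread widely within Rab5 RNAi.

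The order in controls was led by members with unlike roles. Cyp313a1, a CYP4 clan gene, was highest at 136.2 ± 14.4 FPKM, followed by Cyp28d1, which takes part in the response to plant alkaloids, at 108.1 ± 18.9 (SD, n = 4). These neighbours in the order differed by about their spread across libraries, since control 1 had 134.6 FPKM of Cyp28d1 and control 2 had 118.4 of Cyp313a1. Within every control library, though, Cyp313a1 was the higher. Cyp6g1, whose overexpression gives resistance to DDT and neonicotinoids, averaged 80.5 ± 9.73 FPKM and Cyp6d5 averaged 72.4 ± 5.23. Then came Cyp6w1 at 56.4 ± 12.2, Cyp4d21 at 55.0 ± 4.22, Cyp9f2 at 54.9 ± 9.47 and Cyp4p1 at 49.7 ± 7.66 FPKM, which did not differ beyond their spread. Cyp4d21, also known as sxe1, is a male-biased fat body gene that bears on courtship. Cyp28a5 at 43.0 ± 6.24, Cyp4g15 at 36.6 ± 2.31, Cyp9b2 at 34.8 ± 3.54 and Cyp6a20 at 30.1 ± 2.32 FPKM completed the 12. Cyp4g15 is expressed in the nervous system and Cyp6a20 is known from male aggression.

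By family, the 25 genes of family 6 and the 22 of family 4 made up most of the level. Family 6 summed to 239.6 to 608.2 FPKM in Rab5 RNAi, 409.4 to 429.4 in the labelled Rab7 RNAi libraries and 365.7 to 434.1 in controls. Family 4 summed to 300.3 ± 14.7 FPKM in Rab5 RNAi (SD, n = 5), 211.1 ± 28.9 in the labelled Rab7 RNAi libraries and 274.0 ± 28.3 in controls (SD, n = 4 each). Cyp4g1, the oenocyte enzyme that makes cuticular hydrocarbons, was low and uneven in these heads. It had 3.51, 0.365, 0.213, 17.6 and 3.78 FPKM in Rab5 RNAi 1 to 5, 0.0686, 1.23, 2.16 and 0.318 in labelled Rab7 RNAi 1 to 4, and 8.78, 10.5, 4.84 and 0.807 in controls 1 to 4. The highest and some of the lowest Cyp4g1 values of all 13 libraries thus lay within Rab5 RNAi, and no comparison of it was called. Cyp4g1 lies wholly within CG32816 on the same strand. How reads on such models were counted is not stated, so low expression of Cyp4g1 cannot be concluded.

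Differences were tested with limma, as log2(FPKM + 1), in the 10038 genes that averaged 1 FPKM or more across the 13 libraries, and a gene was called at an adjusted p below 0.05. Of the 85 members, 66 passed this filter and 19 did not. For 60 of the 66 every group mean was at least 1 FPKM, and for Cyp4g1, Cyp301a1, Cyp313a4, Cyp304a1, Cyp316a1 and Cyp6a17 at least 1 group mean was lower, so these 6 passed through the groups where they are high. Just outside the filter lay Cyp303a1 at 0.932, Cyp318a1 at 0.8289 and Cyp6a14 at 0.71 FPKM, and just inside lay Cyp304a1 at 1.03, Cyp313a4 at 1.07 and Cyp316a1 at 1.14. The clans contributed 23 of 32 members (CYP4), 32 of 40 (CYP3), 3 of 4 (CYP2) and 8 of 9 (mitochondrial) to the tests. Every log2 difference refers to FPKM + 1 and is therefore smaller than the fold in FPKM itself for genes of low level.

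Rab5 RNAi heads differed from control heads in a set of P450 genes from all 4 clans, some higher and more of them lower. Cyp6a17 was on in Rab5 RNAi heads and close to 0 in controls, and Cyp4p1, Cyp12c1, Cyp316a1, Cyp6d4 and Cyp313b1 were higher. Cyp4d20, Cyp4ac2, Cyp4c3, Cyp305a1, Cyp28c1, Cyp313a1, Cyp12e1 and Cyp4d21 were lower. In total 14 of the 66 tested members were called (21.2%), 6 higher and 8 lower, where 17.5% of all tested genes were called, 8.26% higher and 9.28% lower. This share is near the background, and the called Cyp6a17 and Cyp316a1 passed the filter through the groups where they are high. The groups did not overlap for 14 members (21.2%), against 18.6% of all tested genes. The median difference was -0.12 over members, 21 of 66 lying above 0, and -0.01 over all genes, and the median size of the difference was 0.28 over members and 0.16 over all genes. With plain read totals in place of the authors' scaling, 13 members were called, 6 higher and 7 lower. In whole heads, fewer cells of a type and less RNA per cell cannot be told apart.

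**Figure D2:**
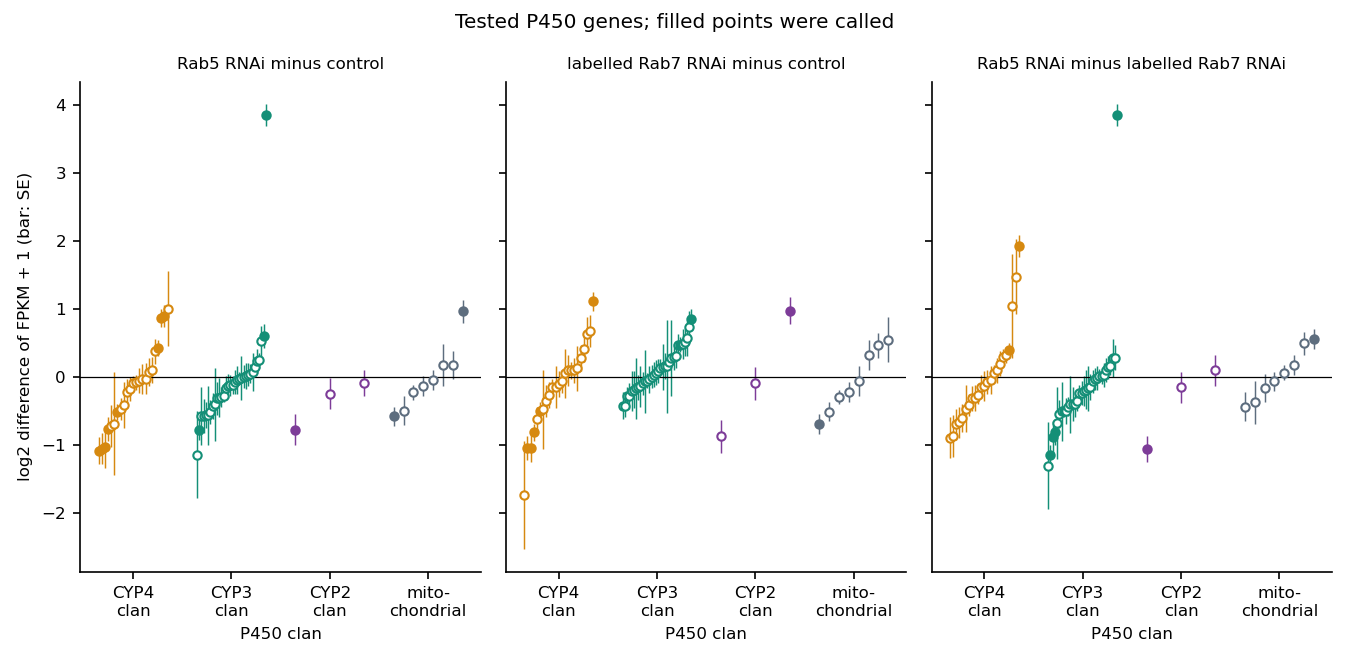
Log2 difference of FPKM + 1 with its standard error for the 66 tested P450 genes, by clan and in order of size, in each of 3 comparisons. Filled points were called, and Cyp6a17 is the single point near 4 in both comparisons that have Rab5 RNAi as the first group.

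Cyp6a17, a CYP3 clan gene known from temperature preference of adult flies, changed most. It had 19.2, 11.8, 11.2, 13.1 and 19.5 FPKM in Rab5 RNAi 1 to 5, against 0.0935, 0.0314, 0.0963 and 0.0665 in controls 1 to 4. In reads this was 359 to 634 per Rab5 RNAi library, against 1 to 3 per control library. Every Rab5 RNAi library thus stood far above every control. Over pooled reads, 2415 against 9, the ratio was 208 with an exact counting interval of 110 to 457, and the fitted difference was 3.86 (SE 0.16, adjusted p = 5.2e-09). The gene passed the filter through Rab5 RNAi alone, so its p-value follows a choice made on the same values. The same gene had 0.0905, 0.0693, 0.0845 and 0.0645 FPKM, or 2 to 3 reads, in labelled Rab7 RNAi 1 to 4, and its difference from controls there was 0.01 (95% interval -0.35 to 0.36). Its neighbour Cyp6a23 is a close copy, and the sources used here do not say how reads were split between such copies.

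The other higher members were spread over the CYP4, mitochondrial and CYP3 clans. Cyp4p1 (CYP4 clan) had 79.4, 107, 94.4, 103 and 81.8 FPKM in Rab5 RNAi 1 to 5, against 50.4, 43.0, 45.2 and 60.2 in controls 1 to 4. The groups were separate, with a difference of 0.90 (SE 0.16, adjusted p = 1.8e-03). Cyp12c1 (mitochondrial clan; 3L, 18684259 to 18686319, minus strand) had 11.9, 9.78, 10.1, 11.6 and 11.7 FPKM in Rab5 RNAi, against 5.11, 5.21, 4.85 and 5.28 in controls. Its control values were nearly equal, and every Rab5 RNAi value lay above them (0.97, SE 0.17, adjusted p = 2.1e-03). Cyp316a1 (CYP4 clan; 3L, 7491864 to 7493484, plus strand) had 1.121, 1.14, 1.45, 1.51 and 1.39 FPKM in Rab5 RNAi, against 0.259, 0.335, 0.381 and 0.118 in controls. It was low in every library, yet without overlap (0.87, SE 0.13, adjusted p = 5.9e-04), and it passed the filter through the RNAi groups. Cyp6d4 averaged 7.54 ± 1.78 FPKM in Rab5 RNAi (SD, n = 5) and 4.51 ± 0.51 in controls (SD, n = 4), with overlap (adjusted p = 0.030). Cyp313b1 averaged 3.99 ± 0.448 and 2.71 ± 0.465 FPKM in the same groups (adjusted p = 0.028).

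Among the lower members were the most abundant P450 of control heads and several of family 4. Cyp313a1 (3R, 14521049 to 14523064, plus strand) had 55.4, 93.3, 92.1, 99.3 and 67.6 FPKM in Rab5 RNAi 1 to 5, against 152, 118, 142 and 132 in controls 1 to 4. No Rab5 RNAi library reached the lowest control (-0.76, SE 0.17, adjusted p = 7.1e-03). Cyp4d20 (3L, 2476259 to 2478448, minus strand) had 6.79, 3.42, 3.005, 4.47 and 5.03 FPKM in Rab5 RNAi, against 10.5, 10.7, 9.24 and 11.4 in controls. Again the groups were separate (-1.08, SE 0.20, adjusted p = 2.1e-03). Cyp4ac2 (2L, 5266392 to 5268455, plus strand) had 3.02, 0.974, 1.52, 1.70 and 2.80 FPKM in Rab5 RNAi, against 7.02, 5.23, 4.44 and 3.73 in controls. Its highest Rab5 RNAi value stayed below its lowest control value (-1.05, SE 0.23, adjusted p = 7.2e-03). Cyp28c1 (CYP3 clan; X, 11839608 to 11841503, plus strand) had 2.81, 1.47, 2.24, 2.36 and 3.77 FPKM in Rab5 RNAi, against 5.17, 4.82, 4.86 and 4.73 in controls, also without overlap (-0.77, SE 0.15, adjusted p = 3.3e-03).

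The remaining lower members were Cyp4d21, Cyp305a1, Cyp12e1 and Cyp4c3. Cyp4d21 had 29.7, 38.6, 39.8, 50.6 and 36.0 FPKM in Rab5 RNAi 1 to 5, against 59.8, 53.1, 56.9 and 50.2 in controls 1 to 4. Only Rab5 RNAi 4 of the 5 reached the control range (-0.51, SE 0.12, adjusted p = 0.012). Cyp305a1 (CYP2 clan) averaged 10.3 ± 2.80 FPKM in Rab5 RNAi (SD, n = 5) and 17.8 ± 1.02 in controls (SD, n = 4), with adjusted p = 0.033. Cyp12e1 (mitochondrial clan) averaged 8.18 ± 1.75 and 12.5 ± 0.72 FPKM in these groups (adjusted p = 0.012). Both were without overlap. Cyp4c3 had 0.656, 1.63, 2.10, 1.45 and 0.446 FPKM in Rab5 RNAi, against 3.98, 4.35, 4.65 and 1.54 in controls, and control 4 lay within the Rab5 RNAi range (-1.03, SE 0.30, adjusted p = 0.030).

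Of these 14 calls, 9 held under all 26 alternative settings, and Cyp305a1, Cyp6d4, Cyp4c3, Cyp313b1 and Cyp4d21 were lost under some. Cyp305a1 was lost without Rab5 RNAi 2 or 3 or without any 1 of the controls (adjusted p 0.061 to 0.082), and Cyp6d4 without Rab5 RNAi 3 or 4 or control 2, 3 or 4 (0.061 to 0.081). With plain read totals Cyp305a1 was lost as well (0.062). Cyp4c3 was lost without Rab5 RNAi 1 or 5 or control 1, 2 or 3 (0.058 to 0.095), and Cyp313b1 without Rab5 RNAi 1 or 2 or control 1, 2 or 4 (0.051 to 0.091). Cyp4d21 (0.082) and Cyp313b1 (0.20) were lost when Rab5 RNAi 2 to 4, labelled Rab7 RNAi 2 and 3 and controls 2 and 3 alone were used. Without Rab5 RNAi 3, Cyp6a23 (0.017) and Cyp6g2 (0.041) were called as well, and Cyp6t3 without Rab5 RNAi 5 (0.047) or labelled Rab7 RNAi 1 (0.039). Markers of some other cell types were called in this comparison, where 17.5% of all tested genes were. Of 6 antenna, 7 tested hemocyte and 3 tested oenocyte genes 0 were called. Of 13 photoreceptor genes 12 were lower, with 1863 to 9006 FPKM summed in Rab5 RNAi and 35050 to 46110 in controls. Of 7 tested fat body genes 3 were lower (177.4 to 318.4 FPKM summed in Rab5 RNAi, 293 to 350.3 in controls). Of the 8 glial genes alrm was lower, with 514.2 to 736.2 FPKM summed in Rab5 RNAi and 686.2 to 838.1 in controls, and 2 of 4 retinal pigment cell genes were lower and 1 higher, with 30.1 to 61.7 FPKM summed in Rab5 RNAi and 298.9 to 566.6 in controls. Of 5 neuron genes 1 was lower (412.7 to 524.7 FPKM summed in Rab5 RNAi, 595.4 to 671.1 in controls), as was 1 of 2 tested gut genes (7.03 to 41.3 and 42.7 to 103.6 FPKM), while 1 of 8 muscle genes was higher (1842 to 3524 and 2088 to 3400 FPKM). With 1 call each, the glial, neuron, gut and muscle lists are not set apart from the share of all genes. The part of these cell types in the P450 differences was not tested.

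**Figure D3:**
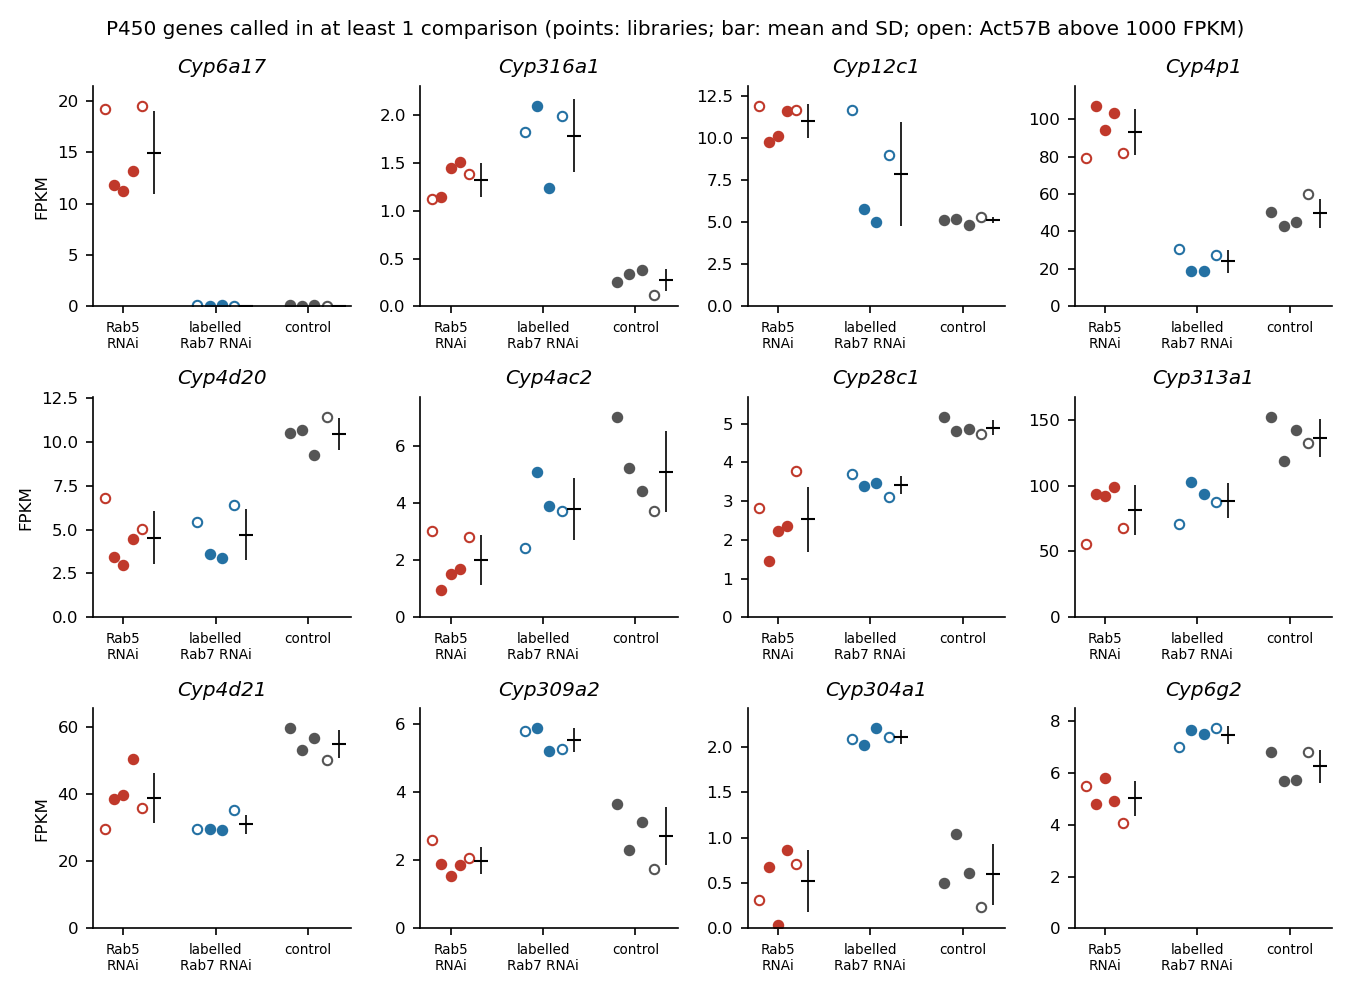
FPKM in every library (points) with mean and SD (bars) for 12 of the 22 P450 genes called in at least 1 comparison; open points are the libraries with Act57B above 1000 FPKM. Cyp6a17 is near 0 outside Rab5 RNAi, Cyp316a1 is high in both RNAi groups, Cyp4d20 is low in both, and Cyp309a2 and Cyp304a1 are high in the labelled Rab7 RNAi libraries.

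The libraries labelled Rab7 RNAi differed from controls in fewer P450 genes. Cyp316a1, Cyp304a1, Cyp309a2 and Cyp6a23 were higher, and Cyp4p1, Cyp4d20, Cyp4d21, Cyp301a1 and Cyp4g15 were lower. This made 9 called members of 66 (13.6%), 4 higher and 5 lower, where 3.21% of all tested genes were called, 1.64% higher and 1.56% lower. Groups did not overlap for 15 members (22.7%), against 13.8% of all tested genes, and all 9 called members were among them. The median difference was -0.01 over members and over all genes alike, and the median size was 0.28 over members against 0.12 over all genes. The share of members called was thus above that of all genes, which is given as a description, with no test of the list. Of the called members, Cyp316a1, Cyp304a1 and Cyp301a1 passed the filter through the groups where they are high.

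Cyp4p1 was the member that moved in opposite directions in the RNAi groups. It had 30.9, 18.9, 18.7 and 27.7 FPKM in labelled Rab7 RNAi 1 to 4, below all 4 controls (-1.04, SE 0.17, adjusted p = 3.9e-03), whereas all 5 Rab5 RNAi libraries lay above the controls. Cyp4d20 had 5.45, 3.59, 3.37 and 6.38 FPKM in labelled Rab7 RNAi, also below every control (-1.04, SE 0.21, adjusted p = 0.014), and so it was lower in both RNAi groups. Cyp4d21 had 29.6, 29.6, 29.4 and 35.4 FPKM, again under the lowest control at 50.2 (-0.81, SE 0.13, adjusted p = 3.9e-03). Cyp4g15 averaged 25.8 ± 3.59 FPKM in labelled Rab7 RNAi and 36.6 ± 2.31 in controls (SD, n = 4 each; adjusted p = 0.044). Cyp301a1, a mitochondrial clan gene needed for normal adult cuticle, averaged 0.875 ± 0.356 and 1.99 ± 0.321 FPKM in these groups (adjusted p = 0.029).

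The higher members here were mostly low in absolute level. Cyp316a1 had 1.83, 2.10, 1.24 and 1.99 FPKM in labelled Rab7 RNAi 1 to 4 and at most 0.381 in controls (1.12, SE 0.14, adjusted p = 5.8e-04), so it was higher in both RNAi groups. Cyp304a1 (CYP2 clan; 3R, 12963791 to 12965923, plus strand) had 2.09, 2.02, 2.21 and 2.11 FPKM in labelled Rab7 RNAi, against 0.502, 1.04, 0.614 and 0.234 in controls. The labelled Rab7 RNAi values were nearly equal and lay above every control (0.98, SE 0.20, adjusted p = 0.015). Cyp304a1 passed the filter through labelled Rab7 RNAi alone. Cyp309a2 (CYP3 clan; 2L, 2564886 to 2573037, minus strand) had 5.79, 5.88, 5.20 and 5.26 FPKM, against 3.65, 2.29, 3.12 and 1.75 in controls. The same even rise over all 4 libraries was seen (0.85, SE 0.16, adjusted p = 0.010). Cyp6a23 averaged 26.9 ± 1.46 FPKM in labelled Rab7 RNAi and 19.1 ± 1.74 in controls (SD, n = 4 each; adjusted p = 0.041).

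Of these 9 calls, those of Cyp4p1, Cyp4d20, Cyp4d21 and Cyp309a2 held under all 26 alternatives. Cyp4g15 was lost without labelled Rab7 RNAi 1, 2 or 4, without any 1 control or without Rab5 RNAi 3, 4 or 5 (adjusted p 0.051 to 0.12), Cyp6a23 without any 1 library of either group or without Rab5 RNAi 4 (0.055 to 0.13), Cyp301a1 without labelled Rab7 RNAi 1 or 4 or control 2, 3 or 4 (0.064 to 0.11) and Cyp304a1 without control 1 (0.054). Cyp304a1 was also lost with a pseudocount of 0.1 (0.11) and with limma-voom on recovered reads (0.079). Without a filter, with plain read totals and with limma-voom, Cyp4g15 (0.059, 0.058 and 0.051) and Cyp6a23 (0.056, 0.066 and 0.061) were lost too. In the same subset of 7 libraries Cyp316a1 (0.067), Cyp6a23 (0.096), Cyp301a1 (0.22), Cyp304a1 (0.27) and Cyp4g15 (0.29) were lost, and the other 4 calls were kept. Of 7 tested hemocyte genes 4 were lower here, with 41.7 to 54.3 FPKM summed in labelled Rab7 RNAi and 64.1 to 91.6 in controls, and the glial gene Gat was lower (525.7 to 595 FPKM summed over the glial genes in labelled Rab7 RNAi, 686.2 to 838.1 in controls), as was 1 of 2 tested gut genes (18.5 to 98.6 and 42.7 to 103.6 FPKM). In this comparison 3.21% of all tested genes were called. Of the 13 photoreceptor, 7 tested fat body, 4 retinal pigment cell, 6 antenna, 8 muscle, 5 neuron and 3 tested oenocyte genes 0 were called. The part of the marked cell types in the P450 differences was not tested.

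Several members near the threshold pointed the same way in both RNAi groups without a call in the labelled Rab7 RNAi libraries. Cyp313a1 had 70.7, 102, 93.7 and 87.9 FPKM in labelled Rab7 RNAi 1 to 4, below every control (-0.62, SE 0.18, adjusted p = 0.076). Cyp305a1 (-0.87, adjusted p = 0.070) and Cyp12e1 (-0.51, adjusted p = 0.076) were likewise without overlap with controls. Because both RNAi groups were set against the same 4 controls, these paired values are not independent of each other. Cyp313a1 was called without Rab5 RNAi 1 (adjusted p = 0.034), and Cyp305a1 without Rab5 RNAi 2 (0.037) or labelled Rab7 RNAi 4 (0.015).

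Set against each other, Rab5 RNAi heads had more Cyp6a17, Cyp4p1, Cyp301a1 and Cyp4g15 than the labelled Rab7 RNAi heads, and less Cyp309a2, Cyp304a1, Cyp309a1, Cyp6t3 and Cyp6g2. These were 9 of 66 members (13.6%), 4 higher and 5 lower, where 11.1% of all tested genes were called, 4.67% higher and 6.4% lower. The share is near the background, and the called Cyp6a17, Cyp304a1 and Cyp301a1 passed the filter through the groups where they are high. Groups did not overlap for 8 members (12.1%), against 11.5% of all tested genes, and the median difference was -0.15 over members and 0.01 over all genes. With plain read totals in place of the authors' scaling, the median over all genes was 0.11, and 12 members were called, 7 higher and 5 lower.

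Cyp4p1 showed the clearest contrast after Cyp6a17. Its lowest Rab5 RNAi value, 79.4 FPKM, was well above its highest labelled Rab7 RNAi value, 30.9 (1.93, SE 0.16, adjusted p = 8.7e-06). Cyp6a17 differed by 3.85 (SE 0.16, adjusted p = 1.1e-08). Cyp309a2 had 2.60, 1.90, 1.52, 1.86 and 2.08 FPKM in Rab5 RNAi 1 to 5, all below the labelled Rab7 RNAi values given above (-1.14, SE 0.15, adjusted p = 3.3e-04). Its tandem neighbour Cyp309a1 averaged 3.26 ± 0.537 FPKM in Rab5 RNAi (SD, n = 5) and 7.14 ± 2.67 in labelled Rab7 RNAi (SD, n = 4), with overlap (adjusted p = 0.035). Cyp304a1 had 0.317, 0.679, 0.0315, 0.864 and 0.712 FPKM in Rab5 RNAi, each below 2.02, the lowest labelled Rab7 RNAi value (-1.06, SE 0.19, adjusted p = 2.7e-03).

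A pair of neighbours on arm 2R made up the rest of the lower calls. Cyp6t3, which takes part in ecdysone synthesis in the larval prothoracic gland, had 7.87, 6.78, 7.40, 4.89 and 8.82 FPKM in Rab5 RNAi 1 to 5, against 18.8, 10.4, 9.62 and 15.5 in labelled Rab7 RNAi 1 to 4. The groups were separate, with labelled Rab7 RNAi 1 and 4 highest (-0.81, SE 0.18, adjusted p = 0.011). Cyp6g2, known from the juvenile hormone gland, had 5.50, 4.798, 5.79, 4.93 and 4.06 FPKM, against 6.99, 7.65, 7.49 and 7.73 (-0.50, SE 0.09, adjusted p = 4.4e-03). Controls lay between the RNAi groups for both genes, at 10.5 ± 0.682 FPKM for Cyp6t3 and 6.25 ± 0.635 for Cyp6g2 (SD, n = 4). The higher calls of Cyp301a1 (0.56, adjusted p = 0.027) and Cyp4g15 (0.40, adjusted p = 0.040) came with lower levels in labelled Rab7 RNAi than in controls, while Rab5 RNAi averaged 1.73 ± 0.273 and 34.4 ± 4.87 FPKM for them (SD, n = 5).

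Of these 9 calls, 6 held under all 26 alternatives. Cyp4g15 was lost without Rab5 RNAi 1, 3, 4 or 5, labelled Rab7 RNAi 1 or 2 or control 1, 2 or 3 (adjusted p 0.053 to 0.11), Cyp309a1 without Rab5 RNAi 2, 4 or 5, labelled Rab7 RNAi 1, 2 or 3 or control 3 (0.051 to 0.11) and Cyp301a1 without Rab5 RNAi 5 or labelled Rab7 RNAi 1 or 4 (0.056 to 0.075). Cyp301a1 was also lost when the RNAi groups were fitted without controls (0.070), and in the 7 libraries its difference was 0.28 (0.38), while Cyp4g15 was lost in both (0.096 and 0.19). Without a filter Cyp309a1 (0.055) and Cyp4g15 (0.061) were lost. Calls were added for Cyp12c1 without labelled Rab7 RNAi 1 (0.0092), Cyp28c1 without Rab5 RNAi 5 (0.032), Cyp4ac2 without Rab5 RNAi 1 (0.040) or labelled Rab7 RNAi 1 (0.047), Cyp4c3 without control 4 (0.042) and Cyp4d21 without Rab5 RNAi 1 (0.035). Between the same groups, 11 of 13 photoreceptor genes, 2 of 4 retinal pigment cell genes, 1 of 7 tested fat body genes and 1 of 5 neuron genes were lower in Rab5 RNAi. Of 7 tested hemocyte genes 4 were higher, as was 1 of 8 muscle genes. Of 8 glial, 6 antenna, 2 tested gut and 3 tested oenocyte genes 0 were called, where 11.1% of all tested genes were. The part of the marked cell types in the P450 differences was not tested.

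P450 levels varied more between libraries of a group than those of most genes. The median coefficient of variation was 27.1% over the 66 tested members in Rab5 RNAi, where it was 14.5% over all tested genes. In labelled Rab7 RNAi it was 23.3% over members and 12.2% over all genes, and in controls 16.1% and 9.99%. In Rab5 RNAi 31 members spanned at least 2-fold between libraries (47.0%, with 20.1% of all genes), in labelled Rab7 RNAi 16 (24.2%, with 12.4%) and in controls 11 (16.7%, with 9.35%). These shares are over the members that passed the filter and are a description.

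In the RNAi groups the spread of many members went with the libraries with high Act57B. Controls were not examined in this way. In Rab5 RNAi, 38 of 66 members (57.6%) were higher in libraries 1 and 5 than in all of libraries 2, 3 and 4, and 8 (12.1%) were lower, where 20.8% and 25.6% of all tested genes were. In labelled Rab7 RNAi, 31 members (47.0%) were higher in libraries 1 and 4 than in both others and 18 (27.3%) were lower, where 25.7% and 26.2% of all tested genes were. The members given in full here were chosen after their values were seen and are not the widest by fold: in labelled Rab7 RNAi Cyp4g1 spanned 31.4-fold, and in Rab5 RNAi Cyp6a22 spanned 5.77-fold and Cyp6g1 4.41-fold.

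Cyp6w1 had 114.9, 22.4, 19.8, 27.7 and 87.2 FPKM in Rab5 RNAi 1 to 5, 42.1, 113, 112 and 38.1 in labelled Rab7 RNAi 1 to 4, and 69.2, 60.4, 55.8 and 40.2 in controls 1 to 4. It was high in the high-Act57B libraries of Rab5 RNAi and low in those of labelled Rab7 RNAi and in control 4. Cyp6g1 had 131, 30.3, 29.8, 34.3 and 108 FPKM in Rab5 RNAi, 77.04, 50.9, 63.5 and 104 in labelled Rab7 RNAi, and 90.2, 70.4, 74.0 and 87.3 in controls. It was higher in the high-Act57B libraries of both RNAi groups. Cyp6a8, a fatty acid hydroxylase raised in DDT-resistant strains, had 28.5, 2.93, 2.34, 5.37 and 21.4 FPKM in Rab5 RNAi, 13.2, 31.8, 33.9 and 13.1 in labelled Rab7 RNAi, and 29.2, 19.3, 24.5 and 8.32 in controls. Like Cyp6w1, it was high in the high-Act57B libraries of Rab5 RNAi, low in those of labelled Rab7 RNAi and lowest of the controls in control 4. Cyp6a2, another gene raised in DDT-resistant strains, had 36.2, 5.04, 6.94, 8.98 and 20.8 FPKM in Rab5 RNAi, 12.2, 19.2, 23.1 and 17.2 in labelled Rab7 RNAi, and 19.2, 20.5, 19.1 and 14.9 in controls. Cyp4p2 did not split in Rab5 RNAi, with 44.9, 51.5, 49.1, 35.7 and 46.7 FPKM, but it had 49.9, 5.76, 5.04 and 35.4 in labelled Rab7 RNAi and 33.9, 15.4, 25.4 and 17.5 in controls.

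**Figure D4:**
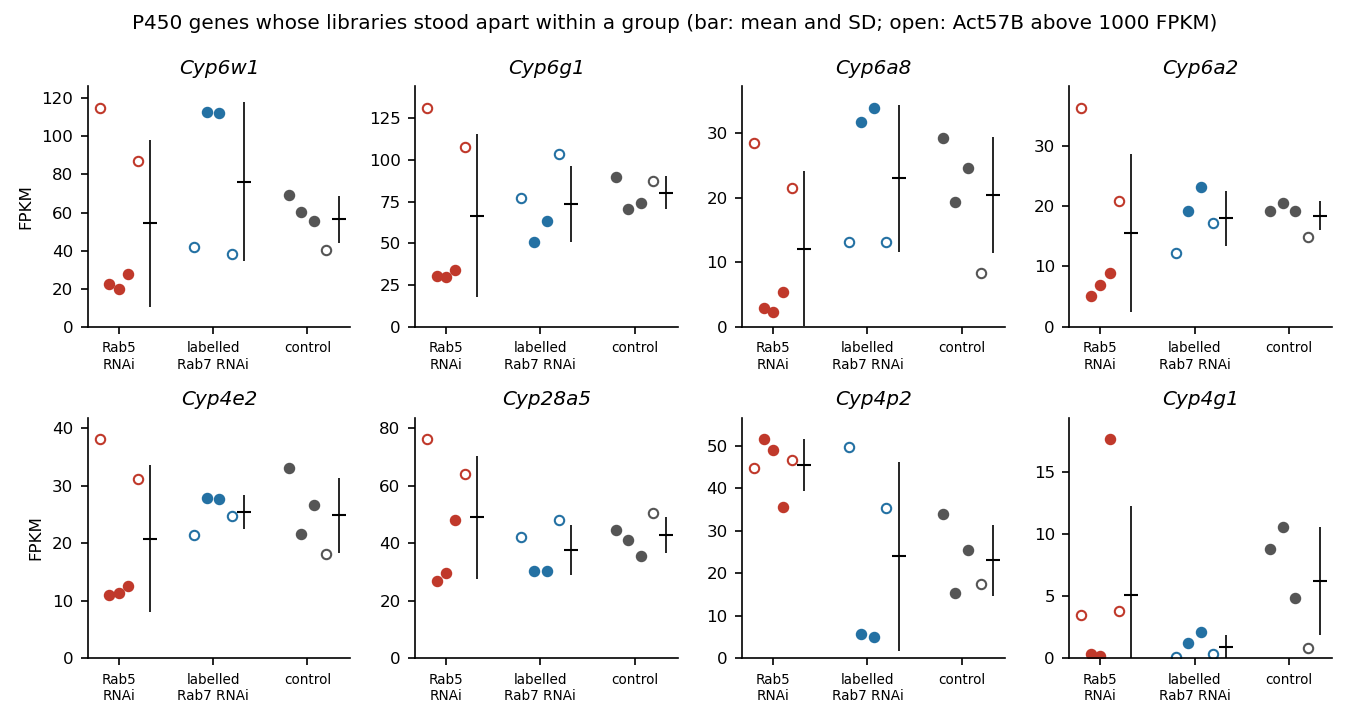
FPKM in every library (points) with mean and SD (bars) for 8 P450 genes with wide spread within a group, chosen after their values were seen; open points are the libraries with Act57B above 1000 FPKM. In Rab5 RNAi, Cyp6w1, Cyp6g1, Cyp6a8, Cyp6a2, Cyp4e2 and Cyp28a5 are high in the open points, and in labelled Rab7 RNAi Cyp6w1 and Cyp6a8 are low in them.

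None of Cyp6w1, Cyp6g1, Cyp6a8, Cyp6a2 or Cyp4p2 was called in any comparison over all 13 libraries. The comparisons were also run on Rab5 RNAi 2, 3 and 4, labelled Rab7 RNAi 2 and 3 and controls 2 and 3, a split defined from these data. It leaves out the 2 Rab5 RNAi libraries in which 38 of the 66 members were higher, so more lower values of Rab5 RNAi follow from the choice of libraries, and the groups hold 3, 2 and 2 libraries. The split follows the largest shared variation among libraries within groups, so spread within groups was made smaller by the choice as well. Adjusted p-values from this subset, wherever given, are affected by that. As a description, 25 members passed the threshold there between Rab5 RNAi and controls, 6 higher and 19 lower, where 17.9% of all tested genes did, 9.1% lower. Between Rab5 RNAi and labelled Rab7 RNAi 24 did, 5 higher and 19 lower, where 13.5% of all tested genes did, and between labelled Rab7 RNAi and controls 7, 3 higher and 4 lower, where 2.6% did. Over all libraries Cyp28d1 had a difference of -0.56 between Rab5 RNAi and controls (adjusted p = 0.056), and it was called without Rab5 RNAi 1 (0.013) or 5 (0.039).

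Many members lie in tandem, with 49 of the 85 in 17 clusters that have at most 20 kb between neighbours. The largest is an array of 9 genes over 31.7 kb of arm 2R, in the order Cyp6a22, Cyp6a17, Cyp6a23, Cyp6a19, Cyp6a9, Cyp6a20, Cyp6a21, Cyp6a8 and Cyp317a1. In it Cyp6a17 was called in Rab5 RNAi against controls and the other 7 tested genes were not, with differences from -1.14 (Cyp6a8) to 0.25 (Cyp6a23). Cyp6a19, which was under the filter, had 1.11, 0.87, 1.33, 0.989 and 1.08 FPKM in Rab5 RNAi 1 to 5, 0.191, 0.469, 0.254 and 0.408 in labelled Rab7 RNAi 1 to 4, and 0.169, 0.227, 0.203 and 0.33 in controls 1 to 4. It too was separate from both other groups, 1 gene further along the array than Cyp6a23. Cyp6a20, between them and Cyp6a21, averaged 33.6 ± 1.46 FPKM in Rab5 RNAi (SD, n = 5), 33.8 ± 7.85 in labelled Rab7 RNAi and 30.1 ± 2.32 in controls (SD, n = 4 each).

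**Figure D5:**
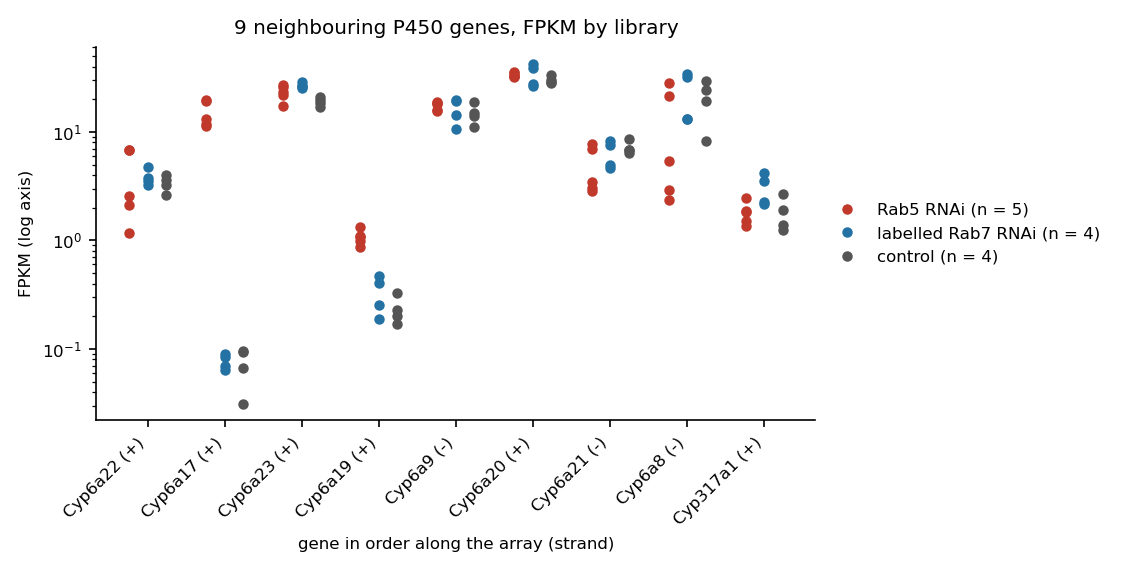
FPKM (log axis) in every library for the 9 neighbouring P450 genes of the largest array, in their order along the chromosome arm with the strand in brackets, for Rab5 RNAi (n = 5), labelled Rab7 RNAi (n = 4) and control (n = 4). Cyp6a17 and Cyp6a19 are separate in Rab5 RNAi, while the other 7 genes overlap between Rab5 RNAi and controls.

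In smaller arrays some neighbours were called and others were not. Of the Cyp4p genes, Cyp4p1 was called in all 3 comparisons, with a difference of 0.90 between Rab5 RNAi and controls. Cyp4p2 had values of 45.6 ± 6.08 FPKM in Rab5 RNAi (SD, n = 5), 24.02 ± 22.3 in labelled Rab7 RNAi and 23.1 ± 8.41 in controls (SD, n = 4 each) without a call, and its difference between Rab5 RNAi and controls was 1.01 (SE 0.55, adjusted p = 0.24). Cyp4p3 averaged 11.8, 11.3 and 8.79 FPKM in these groups. Of the Cyp4ac genes, Cyp4ac2 was called in Rab5 RNAi against controls (-1.05), while Cyp4ac1 (-0.72, adjusted p = 0.14) and Cyp4ac3 (-0.21, adjusted p = 0.45) were not. Next to Cyp316a1 lies Cyp4d8, which differed by 0.08 in Rab5 RNAi (adjusted p = 0.83) and by 0.68 in labelled Rab7 RNAi (adjusted p = 0.13) from controls. Differences between neighbours were not tested.

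Some members share ground with other genes. Of the 22 members called in any comparison, 8 overlap a gene model on the opposite strand, and the sources used here do not state whether strand entered the counting, so reads of such partners cannot be told apart. Cyp313a1 lies wholly within Pde6, Cyp4p1 within hig, Cyp4d20 within Svil, Cyp4ac2 within tkv and Cyp304a1 within grsm. Of these hosts, hig averaged 151, 171.5 and 179.4 FPKM in Rab5 RNAi, labelled Rab7 RNAi and controls, Pde6 averaged 19.6, 18.6 and 20.3, and tkv 16.6, 15.4 and 15.9. Svil averaged 17.4, 25.5 and 21.8 FPKM, and grsm 17.5, 29.4 and 23.97, so grsm and Cyp304a1 were both highest in labelled Rab7 RNAi. The rest overlap at their ends, Cyp6g2 with Cyp6g1, Cyp6t3 with CG8858 and Cyp301a1 with Ak6. Of members under the filter, Cyp6a19 shares 397 bases with Cyp6a9 on the opposite strand. Cyp6a9 averaged 17.4, 16.0 and 14.8 FPKM in Rab5 RNAi, labelled Rab7 RNAi and controls. Of members given in full above, Cyp4g1 lies wholly within CG32816 and Cyp6a2 within Epac, both on the same strand. In the same order of groups CG32816 averaged 4.401, 4.575 and 2.324 FPKM, and Epac 32.067, 29.539 and 31.872.

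Of the 19 members under the filter, Cyp6d2 and Cyp6a19 reached a group mean of 1 FPKM, both in Rab5 RNAi. Cyp6d2 had 1.64, 0.41, 0.83, 0.727 and 2.33 FPKM in Rab5 RNAi 1 to 5, against 0.153, 0.216, 0.346 and 0.131 in controls 1 to 4. The groups did not overlap, and the highest values were those of Rab5 RNAi 1 and 5. With the filter lowered to 0.1 FPKM, Cyp6a19 (0.75, SE 0.10, adjusted p = 2.6e-04) and Cyp6d2 (0.78, SE 0.22, adjusted p = 0.031) were called higher and Cyp4s3 (-0.60, SE 0.15, adjusted p = 0.019) lower in Rab5 RNAi. Cyp4s3 had 0 to 12 reads in Rab5 RNAi libraries, against 5 to 42 in control libraries. Most other members under the filter are Cyp4, Cyp6 and Cyp313 genes, among them the tandem trio Cyp313a5, Cyp313a2 and Cyp313a3, with at most 0.154 FPKM in any group mean.

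Cpr, dare, Fdx1, Fdx2, Cyt-b5 and Cyt-b5-r were taken here as genes for P450 partner proteins. Of 6 such genes, 0 were called in either RNAi group against controls by limma or by limma-voom on recovered reads, and 1 had an unadjusted p below 0.05 in each of these comparisons. Cpr averaged 51.5 ± 10.8 FPKM in Rab5 RNAi (SD, n = 5), 59.0 ± 3.59 in labelled Rab7 RNAi and 54.1 ± 3.04 in controls (SD, n = 4 each). Cyt-b5-r had 153.5, 34.96, 35.2, 40.84 and 177.5 FPKM in Rab5 RNAi 1 to 5, against 184.6, 95.94, 117.8 and 90.71 in controls 1 to 4. With such a split within Rab5 RNAi, the lack of a call does not show equal levels. The ferredoxin gene Fdx1 had 28.9, 30.3, 24.4, 25.0 and 24.5 FPKM in Rab5 RNAi 1 to 5, against 41.6, 42.4, 38.9 and 41.2 in labelled Rab7 RNAi 1 to 4. These groups were separate (-0.61, SE 0.10, adjusted p = 1.8e-03), with the control mean between them at 32.8 ± 5.23 (SD, n = 4).

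P450s that carry other names are those of ecdysone synthesis, the Halloween genes, of which spo, spok, phm and dib averaged at most 0.355 FPKM in any group. Of the 8 genes of this list 3 were tested, and the dehydrogenase gene sro was higher in Rab5 RNAi, at 1.48 ± 0.451 FPKM (SD, n = 5) against 0.741 ± 0.0501 in controls (SD, n = 4; adjusted p = 0.038). Its control mean was under 1 FPKM, so it passed the filter through the groups where it is high. The P450 gene sad, also known as Cyp315a1, was abundant and split within groups. It had 19.4, 189.5, 204.8, 192.3 and 15.3 FPKM in Rab5 RNAi 1 to 5, 67.2, 225.1, 270.1 and 77.2 in labelled Rab7 RNAi 1 to 4, and 207, 208.2, 189.1 and 117.4 in controls 1 to 4. All 5 libraries with high Act57B were the low ones of their group, and no comparison of sad was called.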

How the data were processed

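RNA of 13 whole-head samples was sequenced, and the authors deposited FPKM values per gene and sample. CASAVA is named in the submitters' processing notes without a version, while for aligner, annotation, build and strand the sources used here give nothing. The 13 per-sample columns of the table of the whole series were not used. BDGP6 lists 84 members by identifier, 83 of them at the deposited coordinates. All 182918 values above 0, times gene length, were whole multiples of 1 step per library within 0.05, so reads were recovered, and the deposited FPKM were already scaled across libraries.

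limma 3.58.1 in R 4.3.3, with trend and robust variances, was fitted to log2(FPKM + 1) of 10038 genes in all 3 groups without covariates, with Benjamini-Hochberg adjustment within each comparison. Values are means ± SD. Intervals on reads cover counting error only. Separate crosses or pools of flies are not recorded in the labels. The p-values hence reflect the variation among these libraries only, and it may be technical. Named were members called in any comparison, the 12 highest in controls and those under the filter with a group mean of at least 1. The members, the 8 other gene lists and the marker lists were chosen with earlier results of these data known. The fit was tested on simulated data. Alternatives were other pseudocounts, filters and scalings, limma-voom on recovered reads, a replicate block, each library left out and subsets of libraries.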

Additional observations from a re-analysis of the deposited data

Results flagged for a closer look

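In 96 groups of 4 or 5 libraries, formed by the 32 named members in 3 groups, a library far from all others of its group was looked for with Dixon's test at the 95% level, which picks about 1 group in 20 by chance, and 2 were picked. Cyp4d21 had 35.4 FPKM in labelled Rab7 RNAi 4, against 29.4 to 29.6 in the other labelled Rab7 RNAi libraries, and it stayed below every control. Cyp9b2 had 40.1 FPKM in control 1, against 32.7 to 33.4 in the other controls.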

How the results depend on the processing

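No difference of a named member changed sign in a call. The number of members called between Rab5 RNAi and controls was 14 and became 25 in libraries 2 to 4, 2 and 3, and 2 and 3 of the groups, and 31 when control 1 was added to these. Between the RNAi groups it was 9 and became 24 and 27 in these subsets and 15 with the split as a term, which gave 14 in place of 9 between labelled Rab7 RNAi and controls. The subset with control 1 and limma-voom were chosen after seeing the data. Leaving out 1 library gave 10 to 18 calls for Rab5 RNAi and 6 to 10 for labelled Rab7 RNAi against controls, and 7 to 13 between the RNAi groups. With a replicate block the counts were 20 (5 higher and 15 lower, against 6 and 8 as reported), 12 and 13, and Cyp313b1 against controls (adjusted p = 0.062) and Cyp301a1 between the RNAi groups (0.057) were lost. Same-numbered libraries correlated between -0.159 and 0.303 in their deviations from group means. No such values were taken for differently numbered libraries, so this cannot tell whether the numbers pair libraries. limma-voom on recovered reads gave 14, 6 and 12. Plain read totals gave 13, 7 and 12 and moved the share of all calls that were higher to 67.6%, 43.4% and 74.0%, against 47.1%, 51.2% and 42.2% as reported. The P450 sums stayed within 1 SD under both other scalings. The edgeR and DESeq2 tests planned as alternatives were not run, because the files hold FPKM. A gene of 1 kilobase with 1 read had 0.0487 to 0.0599 FPKM, which limits members under the filter. Causes were not tested.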

Other observations

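Several genes of other detoxification steps and of hormone response were called, in comparisons where 17.5% of all tested genes (Rab5 RNAi against controls), 3.21% (labelled Rab7 RNAi against controls) and 11.1% (between the RNAi groups) were, and no list is set apart from these shares here. Of 11 tested genes of other detoxification steps, the export pump gene Mrp4 was called, at 18.9 ± 2.38 FPKM in Rab5 RNAi (SD, n = 5), 13.6 ± 2.02 in labelled Rab7 RNAi and 10.7 ± 1.20 in controls (SD, n = 4 each). It was higher in Rab5 RNAi than in controls (0.76, adjusted p = 5.0e-04) and than in labelled Rab7 RNAi (0.45, adjusted p = 0.021). Of 7 tested UDP-glycosyltransferase genes, which act after P450s on the same kinds of compound, Ugt86De was lower in Rab5 RNAi, at 1.75 ± 0.551 FPKM (SD, n = 5) against 2.92 ± 0.681 in controls (SD, n = 4; adjusted p = 0.038), and 0 were called by limma-voom. In labelled Rab7 RNAi against controls 0 were called by limma and 4 had an unadjusted p below 0.05, and between the RNAi groups 0 and 1. Of 9 genes for regulators of xenobiotic and oxidative responses, maf-S was lower in Rab5 RNAi, at 88.8 ± 18.7 FPKM against 133.8 ± 26.0 in controls, with overlap (adjusted p = 0.035), while cnc and Keap1 were not called.

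Of 10 tested ecdysone response genes, ftz-f1 was higher in Rab5 RNAi, at 20.9 ± 1.82 FPKM (SD, n = 5) against 16.3 ± 0.598 in controls (SD, n = 4; adjusted p = 0.012), and Hr38 was lower, at 3.41 ± 0.503 against 5.79 ± 1.26 (adjusted p = 9.9e-03). ftz-f1 was also higher in Rab5 RNAi than in labelled Rab7 RNAi (adjusted p = 0.035). Of 8 tested genes of cuticular hydrocarbon synthesis, the fatty acid synthase gene FASN1 was lower in Rab5 RNAi, at 86.6 ± 24.2 FPKM, than in labelled Rab7 RNAi at 135.6 ± 19.7 (adjusted p = 0.030) and controls at 128.6 ± 20.5 (adjusted p = 0.037), with overlap in both. By limma-voom 0 of these genes were called in Rab5 RNAi against controls. Of 6 genes that mark oenocytes, FASN2, FASN3 and eloF averaged under 1 FPKM in every group. The others, bond, FarO and Desat1, averaged 29.5, 5.87 and 400.2 FPKM in controls. Of 4 genes used as transgene markers, 2 were higher in labelled Rab7 RNAi and 1 in Rab5 RNAi than in controls. Between the RNAi groups 1 was higher and 1 lower in Rab5 RNAi. In labelled Rab7 RNAi v was higher, at 66.9 ± 5.59 FPKM, than in controls at 29.0 ± 3.03 (SD, n = 4 each; adjusted p = 4.1e-03). The y gene averaged 31.41, 11.05 and 0.08738 FPKM in Rab5 RNAi, labelled Rab7 RNAi and controls, and w and ry were not called.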
